A study of Ovis aries with 40 samples.

Results

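The longissimus dorsi, the long loin muscle, was compared between Texel and Ujumqin fetuses at 70 d of gestation. The comparison took every array whose sample title names the muscle, the breed and 70 d, which gave 6 of the 40 arrays of the series, 3 for Texel (T70) and 3 for Ujumqin (U70). Texel is a heavily muscled meat breed and Ujumqin is an indigenous Chinese breed. The study describes Texel as a breed with a mutation in the gene of myostatin, which limits muscle growth, and Ujumqin as without it. The labels give no genotype for the single fetuses. The purebred ewes of both breeds were brought into estrus together by a hormone implant and injection and were inseminated with semen of their own breed. The fetuses were taken by caesarean section from 3 ewes of each breed. The labels give the T70 fetuses as female, male and female and the U70 fetuses as male, male and female, so sex was not balanced between the breeds. Both breeds are outbred, no treatment separated them, and each fetus gave 1 array. All 3 T70 arrays lay on slide 1 and all 3 U70 arrays on slide 2, so at this stage breed and slide cannot be told apart, and every difference below is a difference between breeds and between slides. The scanner files list all 15208 sheep spots as unmapped on the genome, so genes are given by name only.

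At this age the fetal loin muscle of the sheep holds primary fibres, on whose surface secondary fibres are laid down by myoblasts, muscle precursor cells that withdraw from division and fuse. Fibres take on slow or fast character through the myosin heavy chain they make, the motor protein of the thick filament, and fast fibres rely more on the breakdown of glycogen and glucose. Bulk RNA of the muscle also holds RNA of fibroblasts, vessels, nerve, blood and immune cells, and a lower signal from fewer cells of a type cannot be told apart from less RNA in each of them.

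The arrays carried 15008 different probes of 60 bases, and the test took the 14379 of them that the scanner software called well above background somewhere among the 31 fetal arrays. On the 70 d arrays 85.2 to 90.2% of spots were well above background, no spot was saturated, and the median processed signal was 570.4, 708.3 and 609.0 for T70 and 576.7, 449.6 and 441.7 for U70. After quantile normalization any pair of the 6 arrays correlated at 0.978 to 0.988 over probes. The number of arrays limits the precision, since 3 against 3 allows no exact two-sided permutation p below 0.1. Of 10 skeletal muscle markers listed, the 3 that could be tested were TNNC2, the calcium-binding troponin of fast fibres, and MYOD1 and MYOG, transcription factors of the myogenic cascade, and all were well above background on all 6 arrays. TNNC2 was at 18.99, 18.80 and 18.75 log2 units in T70 and 18.99, 18.70 and 18.91 in U70, among the brightest signals measured. The summed signal of the 3 markers ran from 489300 to 566139 in T70 and from 460796 to 574318 in U70, so the ranges overlapped.

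The array design offers an internal check, because many genes carry overlapping probes that read nearly the same bases. Among 275 such pairs, sharing at least 20 bases and both above background on all 6 arrays, the T70 minus U70 differences of the partners lay a median of 0.12 log2 units apart and 5 pairs lay 1 or more apart. Pairs shifted by 1 base numbered 173, with a median gap of 0.11 and with 3 pairs 1 or more apart. The probe sequences below, from the scanner files and written 5′ to 3′, are shown because the breed differences of these genes either held on both probes or did not. Capitals mark the bases that the partner probe lacks, and the difference of each probe follows in the text.
OMYHC2A, first probe: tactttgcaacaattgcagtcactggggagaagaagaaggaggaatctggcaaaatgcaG
OMYHC2A, second probe: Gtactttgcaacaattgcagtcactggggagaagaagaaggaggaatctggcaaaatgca
TGFB3, first probe: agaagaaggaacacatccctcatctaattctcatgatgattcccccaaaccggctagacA
TGFB3, second probe: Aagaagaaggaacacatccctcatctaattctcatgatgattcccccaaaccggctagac
PTGER4, first probe: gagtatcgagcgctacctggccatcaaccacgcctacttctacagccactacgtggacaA
PTGER4, second probe: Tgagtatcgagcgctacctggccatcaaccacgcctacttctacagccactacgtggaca
AQP5, first probe: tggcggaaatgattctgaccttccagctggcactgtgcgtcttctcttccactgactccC
AQP5, second probe: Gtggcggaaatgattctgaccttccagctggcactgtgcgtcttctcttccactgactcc
ESR2, first probe: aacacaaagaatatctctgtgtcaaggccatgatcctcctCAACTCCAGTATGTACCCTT
ESR2, second probe: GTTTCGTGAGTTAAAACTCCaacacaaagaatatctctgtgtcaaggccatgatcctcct
ITGAM, first probe: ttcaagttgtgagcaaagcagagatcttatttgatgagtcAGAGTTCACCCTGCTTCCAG
ITGAM, second probe: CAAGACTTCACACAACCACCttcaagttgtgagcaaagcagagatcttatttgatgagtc

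The OMYHC2A probes gave differences of 1.03 and 0.92 and the TGFB3 probes 0.70 and 1.13, in the order printed. The PTGER4 probes, which differ by a shift of 1 base, gave 1.87 and 0.35, and the AQP5 probes gave 0.15 and 1.24. The ESR2 probes, shifted by 20 bases, gave 1.55 and 0.15, and the second was above background on none of the 6 arrays. The ITGAM probes, also shifted by 20 bases, gave 1.33 and −0.92, and the second was above background on 1 array only. For PTGER4 and AQP5, both probes were above background on all 6 arrays and 1 probe of the pair passed the threshold while the other gave a smaller value of the same sign. For ESR2 and ITGAM the second probe was too dim to be compared.

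At the threshold of the study's methods without its limit on the false discovery rate (unadjusted p of 0.05 and a 2-fold difference, from limma), 463 of 14379 probes, 3.22%, differed between the breeds. They were split evenly, with 231 probes above U70 in the Texel fetuses and 232 below, 1.61% each. Scaling to the 75th percentile in place of quantile normalization gave 408 above and 131 below, so the balance between the directions depended on the scaling. After Benjamini-Hochberg adjustment 15 probes passed an adjusted p of 0.05 with a 2-fold difference, 0.104% of those tested, 6 higher in T70 and 9 in U70. That number was 2 to 6 when any 1 of the 6 arrays was left out. Most of the 15008 probes stand for expressed sequence tags without a gene name, so functions were read from the 936 named genes that were tested, each represented by its brightest probe. Of these, 48 passed the unadjusted threshold, 5.13%, with 30 of them (3.21%) higher in T70 and 18 (1.92%) lower. With the 75th percentile scaling 45 named genes were higher in T70 and 7 in U70. Below, "past the threshold" means this unadjusted threshold.

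The 48 genes leaned toward dim probes. A mean signal under 6 log2 units was found for 29 of them, 21 higher in T70 and 8 in U70, and the 19 brighter genes were split into 9 and 10. On all 6 arrays 27 of the 48 were above background, 14 higher in T70 and 13 in U70, and 9 were above background on no array of 1 breed. The T70 and U70 values did not overlap in 41 of the 48, against 229 of all 936 named genes, 24.5%, a description only, since the threshold was read from the same values. The median difference was 0.01 over all probes and 0.09 over the named genes. With normexp background correction in place of the deposited background subtraction 62 probes and 5 named genes passed, and 4 of these, ENO3, OMYHC2A, NPY and CATHL3, were among the 48. Of the 44 genes that the naming rule took, 17 passed whichever single array was left out, among them ALB, AQP5, BLOC1S4, CATHL3, CAUXIN, CLEC4E, EP4d, ESR2, IFN1, ITGAM, KRT27, KRTAP5.4, MCL-1, NPY, PAG6 and PTGER4. The remaining 27 lost the threshold without at least 1 of the arrays.

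**Figure D1:**
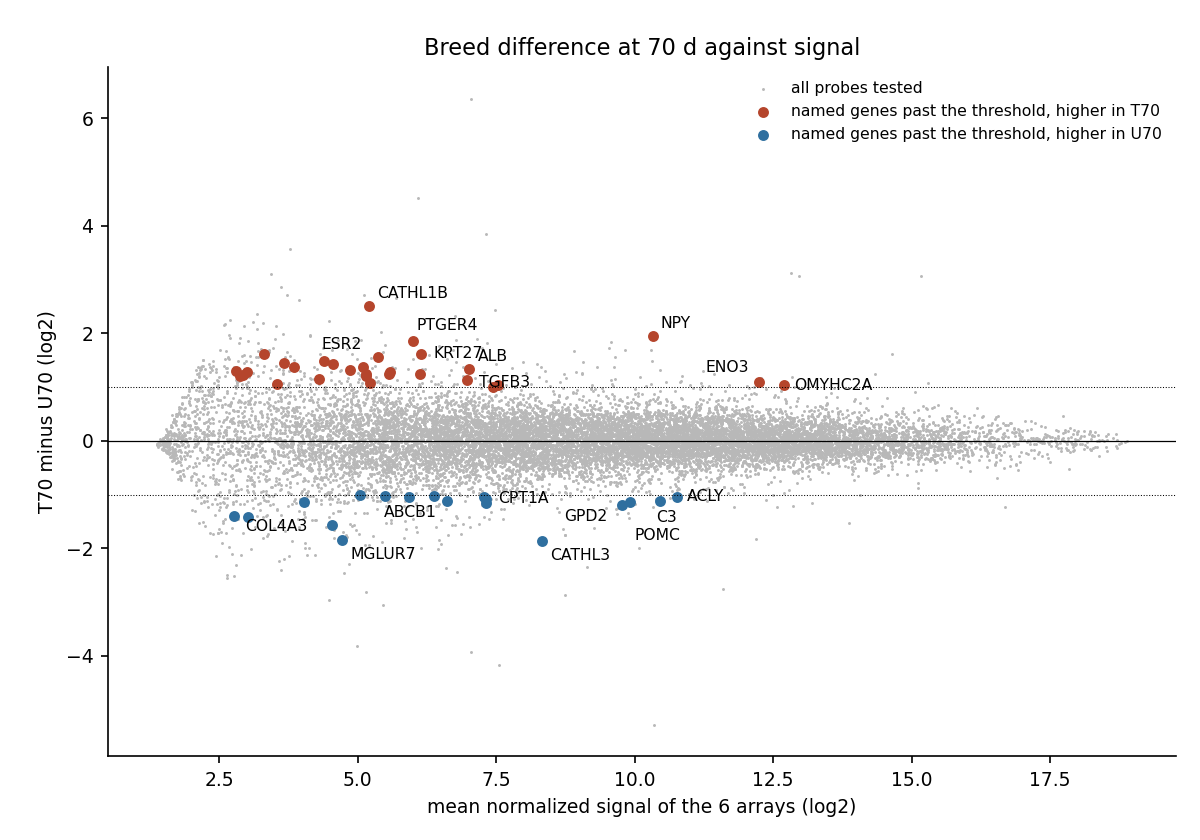
The T70 minus U70 difference (log2) of each of the 14379 tested probes is plotted against its mean normalized signal over the 6 arrays (log2), with the named genes past the threshold in red where higher in T70 and in blue where higher in U70; dotted lines mark a 2-fold difference. The spread of all probes widens toward low signal, where 29 of the 48 named genes lie, and ENO3, OMYHC2A and NPY stand among the bright probes.

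OMYHC2A and ENO3, of fast contraction and of glucose breakdown, were the brightest named genes past the threshold, and both were higher in T70. OMYHC2A, the fast IIa myosin heavy chain, measured 13.29, 12.78 and 13.55 log2 units in T70 and 12.92, 12.09 and 11.51 in U70. The first U70 fetus lay inside the T70 range, so the groups overlapped by that fetus, and the difference was 1.03 (SE 0.38, adjusted p = 0.244). It stayed past the threshold without T70 replicate 2 or U70 replicate 1, and not without any of the other 4 arrays. Of the 8 sarcomere genes tested it was the only member past the threshold, against 5.13% of all named genes. The remaining members were named after their values were seen: OMYHC2X, the fast IIx myosin heavy chain, gave 12.99, 12.41 and 13.18 against 12.68, 11.72 and 11.28. Its difference was 0.97 (SE 0.38), just under 2-fold. OMYHCS, the slow myosin heavy chain of posture muscles, ran the other way, at 8.22, 7.02 and 8.01 in T70 and 8.42, 8.80 and 8.96 in U70, without overlap. Its difference was −0.98 (SE 0.33), also short of 2-fold. The list as a whole had a median difference of 0.05, against 0.09 over all named genes, with 4 members above 0 and 4 below. TPM1, the tropomyosin of thin filaments, and TNNC2 differed by 0.13 (SE 0.23) and −0.02 (SE 0.15).

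ENO3, the muscle form of the glycolytic enzyme enolase, measured 12.48, 12.71 and 13.20 in T70 and 12.09, 11.21 and 11.81 in U70. All T70 values stood above all U70 values, the difference was 1.10 (SE 0.29, adjusted p = 0.144), and the second ENO3 probe gave 1.02 (SE 0.30). Without T70 replicate 3 the difference was 0.89 and without U70 replicate 2 it was 0.85, both below 2-fold. ENO3 was the only 1 of 22 genes of glycolysis and sugar supply past the threshold, but 16 of the 22 lay above 0, the median difference was 0.20, and 8 of them had no overlap between the breeds. Over all named genes 551 of 936 lay above 0, the median was 0.09, 5.13% passed and 24.5% had no overlap. Among the genes of this list named after their values were seen, ALDOA, the muscle aldolase, gave 15.62, 15.34 and 15.58 against 15.03, 14.21 and 14.59, a difference of 0.91 (SE 0.23). PYGM, muscle glycogen phosphorylase, gave 12.17, 11.99 and 12.17 against 11.82, 10.80 and 11.31, a difference of 0.81 (SE 0.26). LDHA, which turns pyruvate to lactate, differed by 0.63 (SE 0.23), glut4, the glucose transporter that insulin brings to the cell surface, by 0.70 (SE 0.25), and PFK-L, the liver form of phosphofructokinase, by 0.54 (SE 0.13). In each of these 5 genes the groups did not overlap and the difference was under 2-fold. For ALDOA the paper reports the opposite direction at this stage, higher in Ujumqin than in Texel. Its value came from a different probe, which the paper labelled ALDOA by homology to a human sequence. The direction of ALDOA given here therefore holds for its named probe only. Other tissue forms of the phosphorylase gave smaller values below 0, −0.20 (SE 0.15) for PYGL, the liver form, and −0.18 (SE 0.23) for PYGB, the brain form. GAPDH differed by 0.10 (SE 0.28). On the Texel arrays of 85 d, where replicates 1 and 2 lay on slide 1 and replicate 3 on slide 2, the slide 1 minus slide 2 difference was 0.11 for OMYHC2A, −0.05 for ENO3, 0.01 for ALDOA and 0.04 for PYGM, from 2 fetuses minus 1. OMYHC2A gave 0.93 with slide as a fixed term and no longer passed the threshold.

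**Figure D2:**
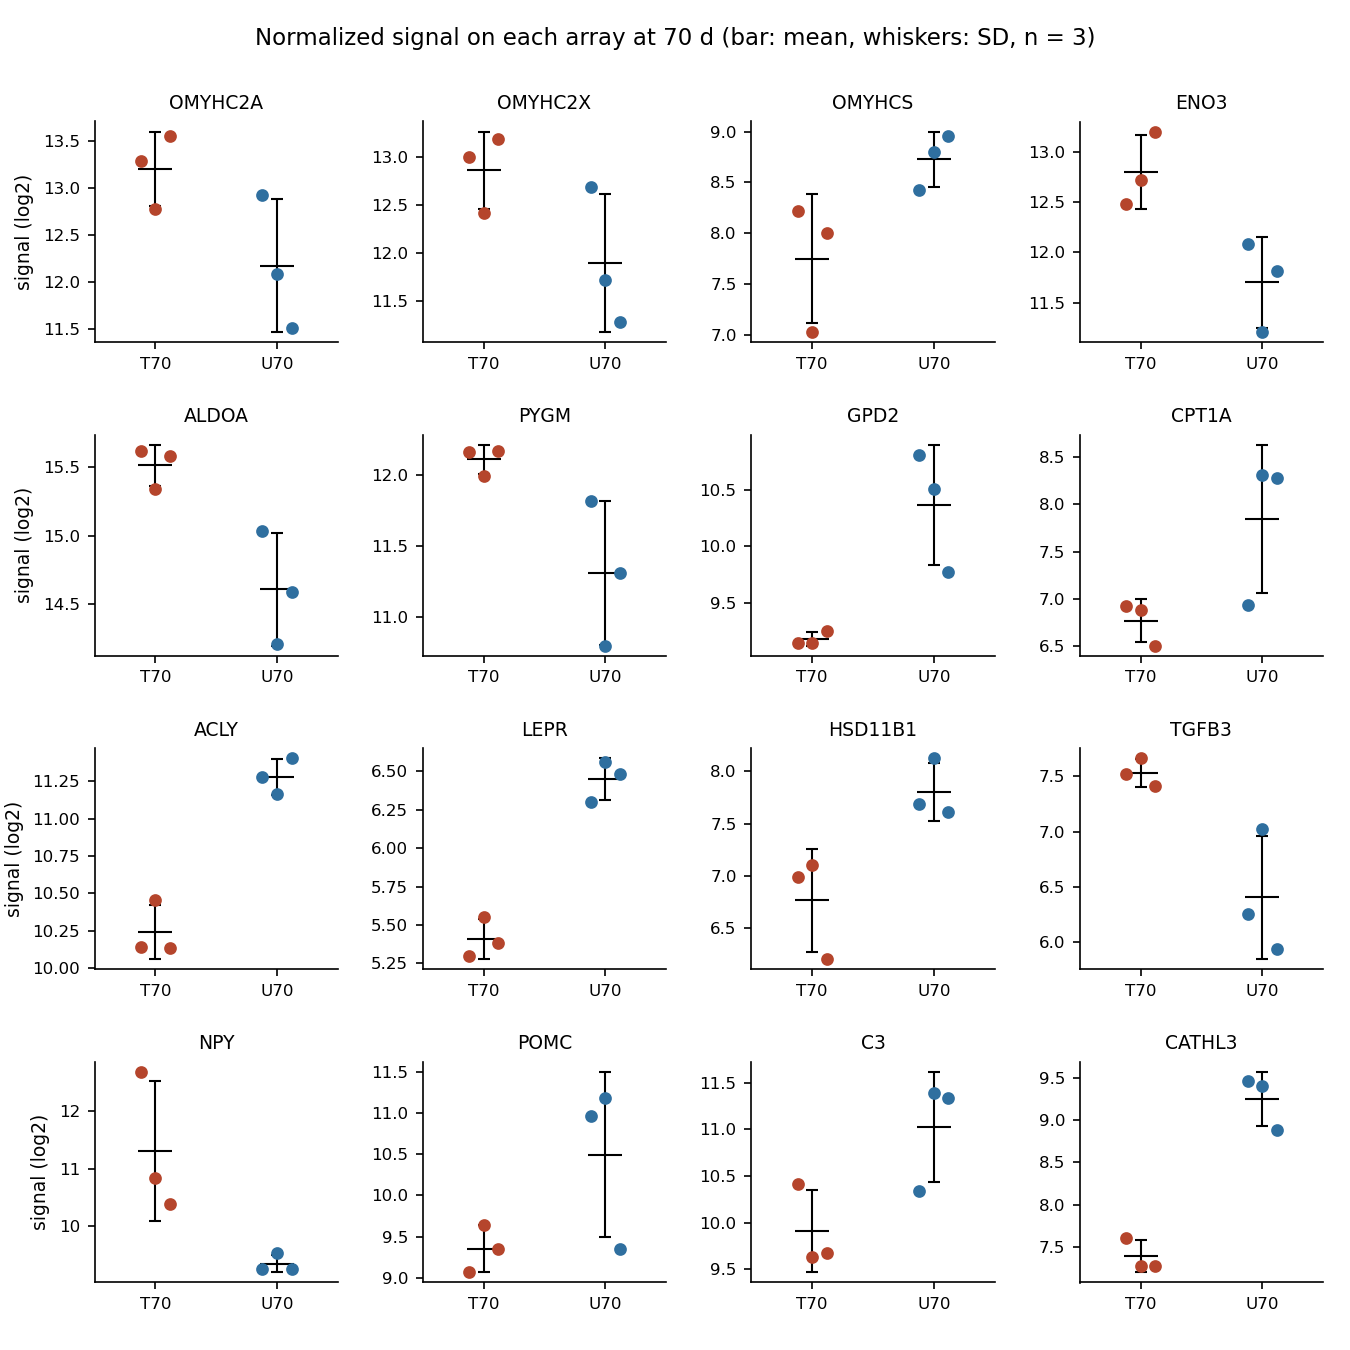
Normalized signal (log2) of 16 genes on each of the 6 arrays at 70 d, T70 in red and U70 in blue; the horizontal bar is the mean and the whiskers are the SD over 3 arrays, and each panel has its own axis, which does not start at 0. The groups are separate for ENO3, ALDOA, PYGM, ACLY, LEPR and CATHL3, and share part of their range for OMYHC2A, OMYHC2X, POMC and C3.

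Among the 11 genes of myogenic regulation none passed the threshold and none had values without overlap. Of all named genes 5.13% passed and 24.5% had no overlap. The median difference of the list was 0.00, and its members ran from −0.93 to 0.16. MYOD1 measured 15.46, 15.00 and 15.93 in T70 and 15.69, 15.01 and 15.21 in U70, a difference of 0.16 (SE 0.29). MYOG gave 0.00 (SE 0.33) and MYF5, which marks myoblasts, 0.14 (SE 0.17), the last named after its value was seen. MSTN, myostatin, the secreted inhibitor of muscle growth, measured 10.31, 11.26 and 10.96 in T70 and 11.18, 11.13 and 11.75 in U70. Its groups overlapped and the difference was −0.51 (SE 0.29). FST, follistatin, which binds and blocks myostatin, gave −0.06 (SE 0.18). A p that missed the threshold does not show equal levels in these genes. MSTN and FST were named after their values were seen.

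Growth factor genes held a single member past the threshold. The share of all named genes past it was 5.13%, and lists of the sizes in this paragraph would hold few or none at that share. TGFB3, a ligand of the TGF-beta family, measured 7.52, 7.66 and 7.41 in T70 and 6.25, 7.02 and 5.94 in U70. It was higher in every T70 fetus, by 1.13 (SE 0.28, adjusted p = 0.134), and its partner probe gave 0.70 (SE 0.27). Of the other 22 genes of the TGF-beta, activin and BMP list none passed, and the list's median was 0.07. None of the 20 genes of the insulin-like growth factor and growth hormone axis passed, and their median was 0.05. Named after their values were seen, IGFBP3, a binding protein that carries insulin-like growth factors, differed by 0.75 and SSTR2, a somatostatin receptor, by 0.76, both without overlap. IGF2, the main fetal growth factor of this family, gave −0.13. None of the 29 genes of the vessel list passed, at a median of 0.21, and none of 16 cell cycle genes, 24 ribosome and translation genes, 10 chaperones or 5 genes of mitochondrial respiration passed, at medians of 0.07, 0.07, 0.06 and −0.00.

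Genes of fat handling differed in both directions. Of 23 genes of fatty acid, sterol and adipose metabolism 3 were past the threshold toward U70 and 1 the other way, against 1.92% and 3.21% of all named genes. The list's median was 0.13, with 15 genes above 0 and 8 below. ACLY, ATP citrate lyase, which makes the acetyl-CoA from which fatty acids and sterols are built, measured 10.14, 10.45 and 10.13 in T70 and 11.28, 11.16 and 11.40 in U70. No values overlapped, and the difference was −1.04 (SE 0.16, adjusted p = 0.0708). On the 85 d Texel arrays its slide difference was 0.92, opposite in sign to the breed difference. CPT1A, which lets long fatty acids into mitochondria for oxidation, measured 6.92, 6.88 and 6.51 in T70 and 6.94, 8.31 and 8.28 in U70. The first U70 fetus was level with T70, and the difference of −1.07 (SE 0.38) came from the other two. LEPR, the receptor of the fat hormone leptin, measured 5.29, 5.55 and 5.38 against 6.30, 6.56 and 6.48, a difference of −1.04 (SE 0.15, adjusted p = 0.0703). Its 4 probes gave −1.04, −1.14, −1.10 and −1.23, the last from a probe above background on no array. UCP3, an uncoupling protein of muscle mitochondria, was the member higher in T70, at 5.09, 4.32 and 5.19 against 4.27, 3.00 and 3.88, by 1.15 (SE 0.38), with 1 of 3 U70 arrays above background. GPD2, the mitochondrial enzyme of the glycerol phosphate shuttle and in no list, measured 9.15, 9.15 and 9.25 in T70 and 10.81, 10.51 and 9.78 in U70. The T70 fetuses lay close together and below every U70 fetus, with a difference of −1.18 (SE 0.27, adjusted p = 0.118). Calls of ACLY, LEPR, CPT1A, UCP3 and GPD2 were lost without at least 1 of the arrays, CPT1A without each of 4 arrays in turn.

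Among peptide hormones and their receptors, 37 genes tested, 3 were past the threshold higher in T70 and 1 higher in U70, against 3.21% and 1.92% of all named genes. The median was 0.14, and 13 of the genes had no overlap, against 24.5% of all. NPY, neuropeptide Y, a transmitter of sympathetic nerves and of appetite circuits, measured 12.69, 10.84 and 10.38 in T70 and 9.26, 9.53 and 9.26 in U70. The first T70 fetus stood far above the others, yet all 3 exceeded U70, and the difference was 1.95 (SE 0.56, adjusted p = 0.165), with 1.69 (SE 0.54) from the second probe. It remained past the threshold without any 1 array and with slide as a fixed term, at 2.41, and its slide difference in the 85 d Texel arrays was −0.45. POMC, the precursor of ACTH, melanocortins and endorphin, measured 9.06, 9.64 and 9.35 in T70 and 10.96, 11.18 and 9.34 in U70. The third U70 fetus lay inside the T70 range, and the difference was −1.14 (SE 0.48, adjusted p = 0.291), past the threshold in only 1 of the 6 fits that left out an array. CGA, the subunit shared by the glycoprotein hormones, was dim, at 3.33, 3.32 and 3.79 against 2.00, 3.23 and 1.58, and not above background on any U70 array.

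PTGER4, a receptor for prostaglandin E2, measured 7.44, 6.92 and 6.42 in T70 and 5.32, 5.24 and 4.62 in U70 on the probe past the threshold. The difference was 1.87 (SE 0.31, adjusted p = 0.0797) and the slide difference at 85 d was 1.83, while on the partner probe they were 0.35 and 0.30. EP4d, a partial transcript of the same receptor family by its name in the array design, passed the threshold higher in U70 (adjusted p = 0.0645). It was above background on 1 U70 array and on no T70 array, so no fold is given. With slide as a fixed term the difference on this probe was 0.08. Its other probe, also above background on 1 U70 array only, gave 0.68 (SE 0.53), so the direction of EP4d rests on 1 probe. NPVF, the precursor of RFamide peptides of the hypothalamus, gave 3.64, 3.60 and 5.12 against 2.60, 3.33 and 1.58. It was at least 1.19-fold higher in T70, as no U70 array was above background. ASIP, the agouti protein that blocks a melanocortin receptor, had the largest difference of all named genes and missed the threshold; it was named after its values were seen. It measured 16.89, 16.56 and 16.66 in T70 and 9.96, 16.34 and 14.61 in U70. The first U70 fetus was far below the rest, the groups did not overlap, and the difference was 3.07 with an SE of 1.47 (adjusted p = 0.343).

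Genes of steroid hormone action differed in both directions. ESR2, estrogen receptor beta, measured 6.04, 6.15 and 6.21 in T70 and 4.72, 4.53 and 4.49 in U70, by 1.55 (SE 0.14, adjusted p = 0.0254), and was 1 of 4 named probes past the adjusted threshold. Its partner probe was not above background on any array, and its slide difference at 85 d was 1.38. HSD11B1, the enzyme that regenerates active cortisol, ran the other way, at 6.99, 7.11 and 6.21 in T70 and 7.69, 8.12 and 7.61 in U70. No values overlapped, and the difference was −1.04 (SE 0.28, adjusted p = 0.146) with a slide difference of −0.23. The list of 13 steroid and nuclear receptor genes had a median of 0.19, and 5 of its genes had no overlap, against 24.5% of all named genes.

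Immune and defence genes contained 2 of the 4 named probes past the adjusted threshold, in opposite directions. CATHL3, a cathelicidin, an antimicrobial peptide of neutrophil granules that the array lists as BAC7.5, measured 7.61, 7.28 and 7.28 in T70 and 9.46, 9.41 and 8.89 in U70. The difference was −1.86 (SE 0.20, adjusted p = 0.0497), 3.63-fold, and its slide difference of 1.71 at 85 d had the opposite sign. CATHL1B, a second cathelicidin, measured 8.22, 5.73 and 5.43 in T70 and 3.17, 3.60 and 5.10 in U70, a difference of 2.51 (SE 0.82) in the other direction. Its slide difference at 85 d was 3.08, larger than the breed difference, and with slide as a fixed term the value was −0.57. The other antimicrobial peptides, BAC5 and SC5, differed by −0.60 and 0.28.

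ITGAM, the alpha chain of an integrin of monocytes and neutrophils, measured 5.52, 5.61 and 5.44 in T70 and 4.27, 4.26 and 4.05 in U70, by 1.33 (SE 0.14, adjusted p = 0.0438). Only 1 of 3 U70 arrays was above background on this probe, so the exact size is not set. The ITGAM partner probe, printed above, was too dim to be compared (SE 0.93). CLEC4E, a macrophage lectin, measured 5.92, 5.42 and 5.94 against 4.14, 4.73 and 4.77, a difference of 1.21 (SE 0.24), and its second probe gave 1.86. CD80, a costimulatory ligand on antigen-presenting cells, measured 8.10, 7.85 and 7.87 against 6.93, 7.05 and 6.81, by 1.01 (SE 0.15, adjusted p = 0.0703). These were 3 of the 44 genes of the leukocyte list, against 5.13% of all named genes, and the list's median was 0.15. Of its genes 28 lay above 0 and 16 below. The lowest, at −2.12, was also the lowest of all named genes, and it did not pass the threshold. LOC443398, the gamma chain of CD3 on T cells, which the list does not hold, passed higher in U70. It measured 3.56, 3.40 and 3.41 in T70 and 3.65, 4.96 and 5.15 in U70, a difference of −1.13 (SE 0.38). IL2, the T cell growth factor, gave 1.45 (SE 0.57) on a probe with 1 of 3 U70 arrays above background, and −1.49 (SE 1.54) on its second probe. IFN1, an interferon-alpha, gave 1.49 (SE 0.41), with a slide difference of 1.69 at 85 d and −0.20 with slide as a fixed term. None of 9 interferon-stimulated genes passed, at a median of 0.28, and of 29 cytokine and chemokine genes IL2 alone passed. The summed signal of 5 leukocyte markers was 1370 to 1894 in T70 and 1403 to 1651 in U70, so it did not separate the breeds.

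Plasma proteins differed in both directions. C3, the central protein of the complement cascade, measured 10.42, 9.63 and 9.67 in T70 and 10.34, 11.39 and 11.34 in U70. The first U70 fetus fell in the T70 range, and the difference was −1.12 (SE 0.35), with −1.09 (SE 0.31) on the second probe. ALB, serum albumin, measured 7.49, 7.31 and 8.25 in T70 and 6.57, 6.02 and 6.46 in U70, by 1.33 (SE 0.28, adjusted p = 0.108), and 2.00 with slide as a fixed term. The 4 liver and plasma markers summed to 6275 to 9094 in T70 and 7196 to 8483 in U70. EPO, erythropoietin, which was placed in the erythroid list, passed the threshold higher in T70 from 1 T70 array and no U70 array above background, so no fold is given. The summed signal of the 5 erythroid genes overlapped widely, at 45211 to 147493 in T70 and 50553 to 177305 in U70.

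Some keratin and placental genes, which skeletal muscle is not known for, were past the threshold higher in T70. KRT27, a keratin of the inner root sheath of the hair follicle, measured 6.53, 7.47 and 6.88 in T70 and 4.82, 5.53 and 5.66 in U70, a difference of 1.63 (SE 0.32, adjusted p = 0.0943). KRT25, another keratin of that sheath, gave 4.86, 3.52 and 5.22 against 2.55, 2.79 and 4.14 and was at least 1.59-fold higher in T70 on this probe. The groups overlapped, and KRT25 stayed past the threshold in only 2 of the 6 fits that left out an array. Its second probe gave 1.04 (SE 1.15), with U70 replicate 2 at 5.93, above every T70 value. KRTAP5.4, a keratin-associated protein, passed the threshold higher in T70 with 1 T70 array and no U70 array above background, and no fold is given. TFF3, a trefoil peptide of mucous epithelia that was placed in the same list, gave −1.02 (SE 0.26) and 0.04 with slide as a fixed term. Its second probe gave −0.97 (SE 0.36) and −0.84 with that term. Of the 13 genes of the list 3 passed higher in T70 and 1 higher in U70, against 3.21% and 1.92% of all named genes. The 13 genes had a median of 0.17, with 7 above 0 and 6 below, and 2 were above background on no array. Their summed signal was 1436 to 1624 in T70 and 962 to 1492 in U70, so 1 or more U70 fetuses lay in the T70 range, and the part of skin RNA in these differences was not tested. PAG6, a pregnancy-associated glycoprotein of the trophoblast, measured 6.43, 6.0 and 6.15 against 5.39, 4.79 and 4.66, by 1.25 (SE 0.23, adjusted p = 0.0914). PRP2, a prolactin-related protein, passed higher in T70 with 2 T70 arrays and no U70 array above background, and no fold is given. Of the 11 placental genes 2 passed, both higher in T70, against 3.21% of all named genes. The 11 genes had a median of 0.42, with 7 above 0 and 4 below, and 4 were above background on all 6 arrays.

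Transport, matrix and enzyme genes added single members. ABCB1, a pump that exports drugs and lipids from cells, measured 5.98, 6.09 and 6.10 in T70 and 7.61, 6.70 and 7.17 in U70, by −1.11 (SE 0.24, adjusted p = 0.11), and its second probe gave −1.60. AQP5, a water channel, measured 6.93, 6.50 and 6.79 against 5.56, 5.29 and 5.65, by 1.24 (SE 0.18, adjusted p = 0.0703), with the partner probe at 0.15. CLC2, a chloride channel, gave 1.08 (SE 0.30), with 2 of 3 U70 arrays above background. Its second probe gave 0.34 (SE 0.20), and there the groups overlapped. ABCB1, AQP5 and CLC2 were 3 of 57 transporters and channels, near the 5.13% of all named genes, and the list's median was 0.15. TRPV6, a calcium channel, passed the adjusted threshold on 1 probe (adjusted p = 0.0498), but that probe was above background on 2 T70 arrays and no U70 array, no fold above 1 could be bounded, and its slide difference at 85 d was 2.15. Its brighter probe gave 0.32 (SE 0.17).

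COL4A3, a chain of basement membrane collagen, measured 3.45, 3.14 and 4.68 in T70 and 5.19, 4.29 and 6.50 in U70, by −1.57 (SE 0.62). MMP-1, a collagenase, went the other way, at 1.24 (SE 0.48) and 1.71 (SE 0.40) on its probes. The median of 15 collagen and matrix genes was 0.06. CAUXIN, a carboxylesterase-like enzyme, measured 6.44, 6.16 and 6.09 against 5.07, 4.68 and 5.08, by 1.29 (SE 0.18, adjusted p = 0.0703). The detoxifying list of 10 genes had the lowest median, −0.26. MCL-1, which the array names after a survival protein of the BCL2 family, passed higher in U70 from 1 U70 array above background, so no fold is given. The probe of MCL1 differed by 0.08. In no list were MGLUR7, a glutamate receptor, at −1.85 (SE 0.67) and −1.81 (SE 0.71) on its probes, CLMP and BLOC1S4. CLMP, a cell adhesion protein, gave −1.16 (SE 0.42), with U70 at 7.32, 8.91 and 7.45. Its second probe, shifted by 1 base, gave −0.52 (SE 0.13). BLOC1S4, a subunit of an organelle biogenesis complex, gave 1.37 (SE 0.26), with 1 of 3 U70 arrays above background. Its slide difference at 85 d was 1.14, and with slide as a fixed term the value was 0.22. The 4 genes past the threshold outside the naming rule, named here after their values were seen, were PAX4 at 1.03, DIRAS3 at −1.03, GRIA1, a glutamate receptor subunit, at −1.01 and LOC101107261, listed as a mast cell proteinase, at least 1.16-fold higher in T70. None of the 7 genes of the nerve and synapse list, which holds neither GRIA1 nor MGLUR7, passed, against 5.13% of all named genes. The list's median was 0.56, and in it NR1, a glutamate receptor subunit named after its value was seen, gave 2.20 (SE 1.08). The medians of the lists not yet given were 0.21 for 4 immunoglobulin and T cell receptor chains, 0.09 for cytokines and chemokines, 0.03 for 10 complement and plasma proteins, 0.01 for 8 cell death genes, −0.14 for the erythroid list and −0.16 for 4 antimicrobial peptides. Of the other cell type markers, 3 endothelial genes summed to 369 to 465 in T70 and 357 to 480 in U70, 3 adipocyte genes to 1431 to 5971 and 1748 to 2854, the only cartilage marker tested, ACAN, was above background on no array, and no Schwann cell marker was tested.

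**Figure D3:**
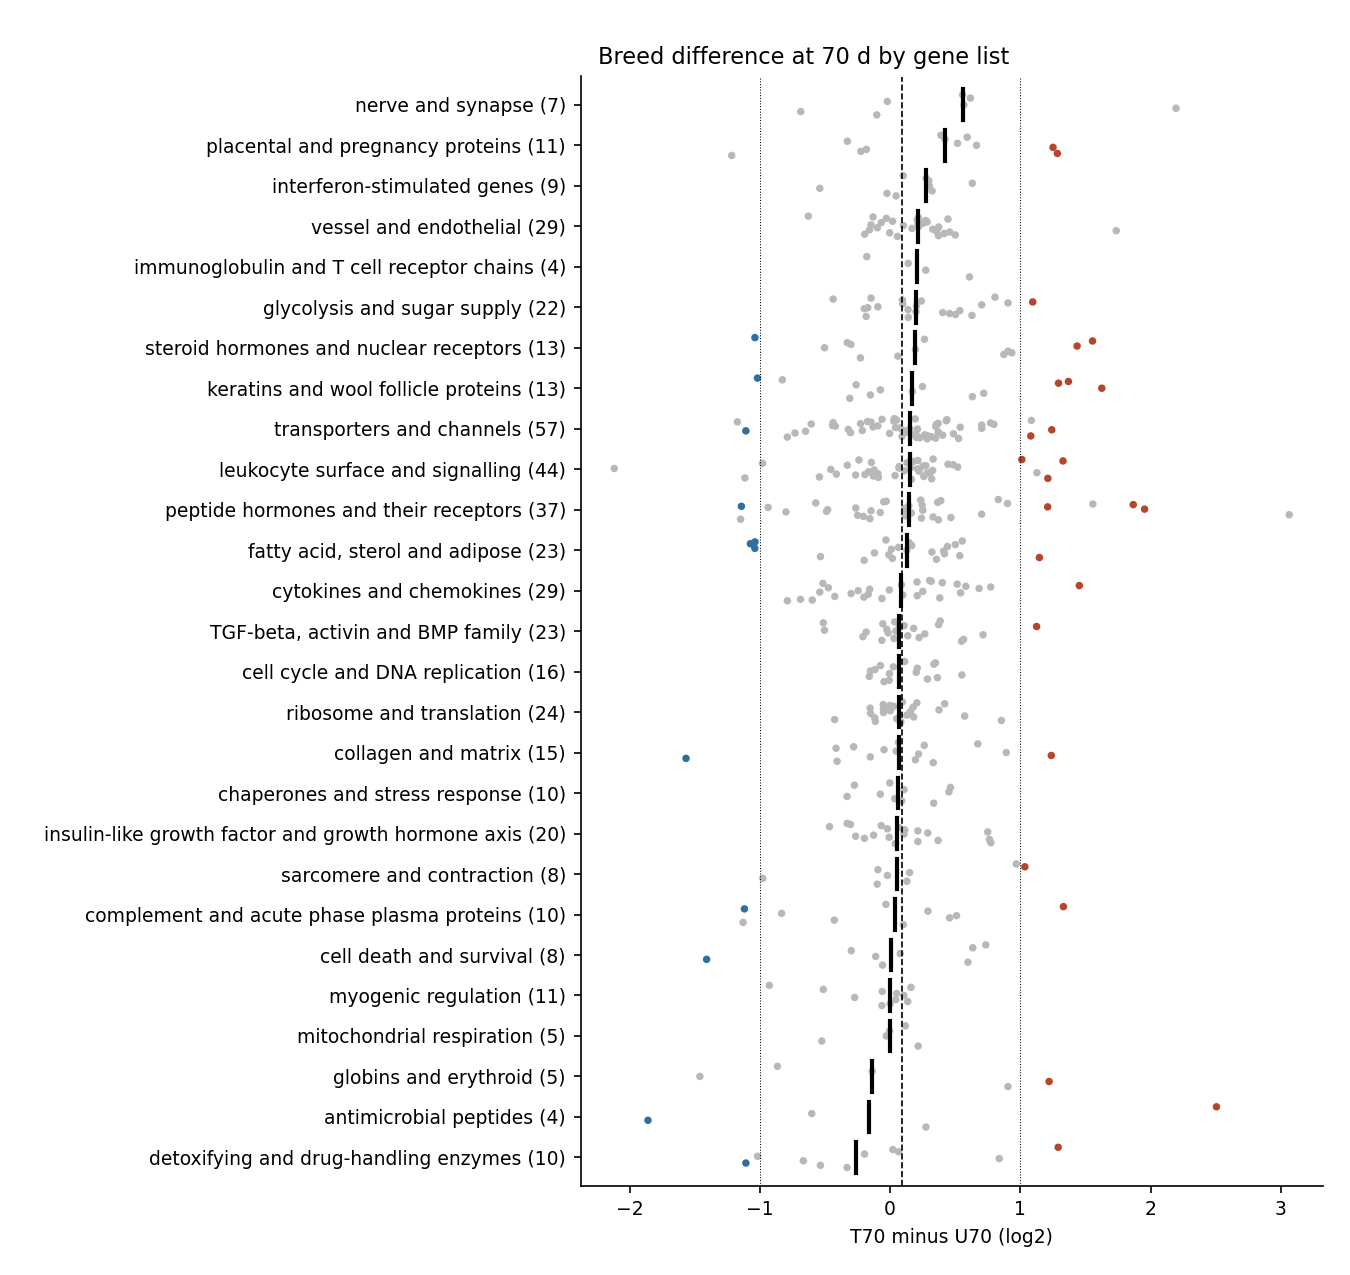
The T70 minus U70 difference (log2) of each gene in 27 gene lists, with the number of genes tested in parentheses; red points passed the threshold higher in T70, blue points higher in U70, grey points did not pass, short bars are list medians and the dashed line is the median of the 936 named genes, 0.09. Glycolysis, with a median of 0.20, has 16 of 22 genes above 0, against 551 of 936 named genes. Other medians lie further right, among them nerve (0.56), placental (0.42) and interferon-stimulated genes (0.28). Myogenic regulation is centred on 0.00 with no point past the threshold.

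The adjusted threshold was reached mainly by 11 probes without a gene name in the array annotation, for which the homologous gene named in the study's annotation is given as a label only. Probe A_70_P011946, labelled ADD3 there, an actin-capping protein of the membrane skeleton, measured 10.47, 9.73 and 10.51 in T70 and 4.24, 3.73 and 3.63 in U70. The fitted difference was 6.37 (SE 0.27, adjusted p = 0.000836), with only 1 of 3 U70 arrays above background, so its exact size is not set. Its slide difference at 85 d was −0.30. Probe A_70_P046666, labelled EEF1A2, the elongation factor that replaces the embryonic form in mature muscle, measured 14.63, 14.82 and 14.07 against 11.50, 11.09 and 11.70. It differed by 3.07 (SE 0.25, adjusted p = 0.0216), with a slide difference of −0.15. The paper's quantitative PCR of EEF1A2 ran the other way at this stage, lower in Texel than in Ujumqin. At 85 d that PCR was higher in Texel, by much less than the paper's array ratio. Whether the signal of this probe follows EEF1A2 was not tested. Probe A_70_P016431, labelled as a T cell receptor delta chain, was at least 1.28-fold higher in T70, above background on all T70 and no U70 arrays, and had a slide difference of 2.03.

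Higher in U70 was probe A_70_P069356, labelled SELI, an enzyme of phospholipid synthesis, at 5.33, 5.08 and 4.80 in T70 and 8.95, 9.10 and 8.96 in U70. The difference was −3.93 (SE 0.17, adjusted p = 0.000836), 15.3-fold, and the slide difference was 0.66. Probe A_70_P011246, labelled ULBP3, a ligand of natural killer cells, measured 6.80 and 7.25 in T70, with the second T70 spot dropped as an outlier, and 9.94, 10.14 and 9.61 in U70, by −2.87 (SE 0.24, adjusted p = 0.0423). Probes A_70_P046321 and A_70_P006226, without a label, gave −2.76 (SE 0.19) and −2.44 (SE 0.23). The fifth, A_70_P013111, passed higher in U70 (adjusted p = 0.0228) but was above background on 1 of 6 arrays only, so no fold is given. All 8 of these probes kept the unadjusted threshold without any 1 array, and 6 of 8 kept it with slide as a fixed term.

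The breed difference at 70 d was then set against the mean breed difference of the 4 later fetal stages, from 85 to 135 d, in 1 limma fit over the 31 fetal arrays. After adjustment 4 of 14379 probes passed, 0.0278%, and no named gene past the threshold at 70 d was among them. NPY came nearest, with 2.09 (adjusted p = 0.21). Its breed difference was 1.95 (SE 0.49) at 70 d and between −0.54 and 0.12 at the later stages. A_70_P069356 passed at −3.12, A_70_P046666 at 2.01, A_70_P018086 at −1.29 and A_70_P056776 at −1.64. A_70_P046666 differed by 3.07 and 3.89 at 70 and 85 d, by 0.79 at 100 d, and by −0.37 and −0.03 at 120 and 135 d, so the high signal in Texel covered both of the first stages. ENO3 too was highest at the first stages, at 1.10, 1.15, 0.53, 0.27 and 0.06 (SE 0.23 to 0.24), and ALDOA gave 0.91, 1.09, 0.38, 0.19 and −0.08. For ENO3 the 70 d difference was not separable from the later mean (0.59, adjusted p = 0.39). OMYHC2A gave 1.03, −0.03, 0.72, 0.22 and −0.18, with the second stage below the third. POMC lay below 0 at all 5 stages, from −0.71 to −2.08, and TGFB3 above 0 at all 5, from 0.30 to 1.13. ACLY gave −1.04 at 70 d and 0.47 at 85 d, with an SE of 0.45 at each, and the 70 d difference against the later mean did not pass (adjusted p = 0.52).

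**Figure D4:**
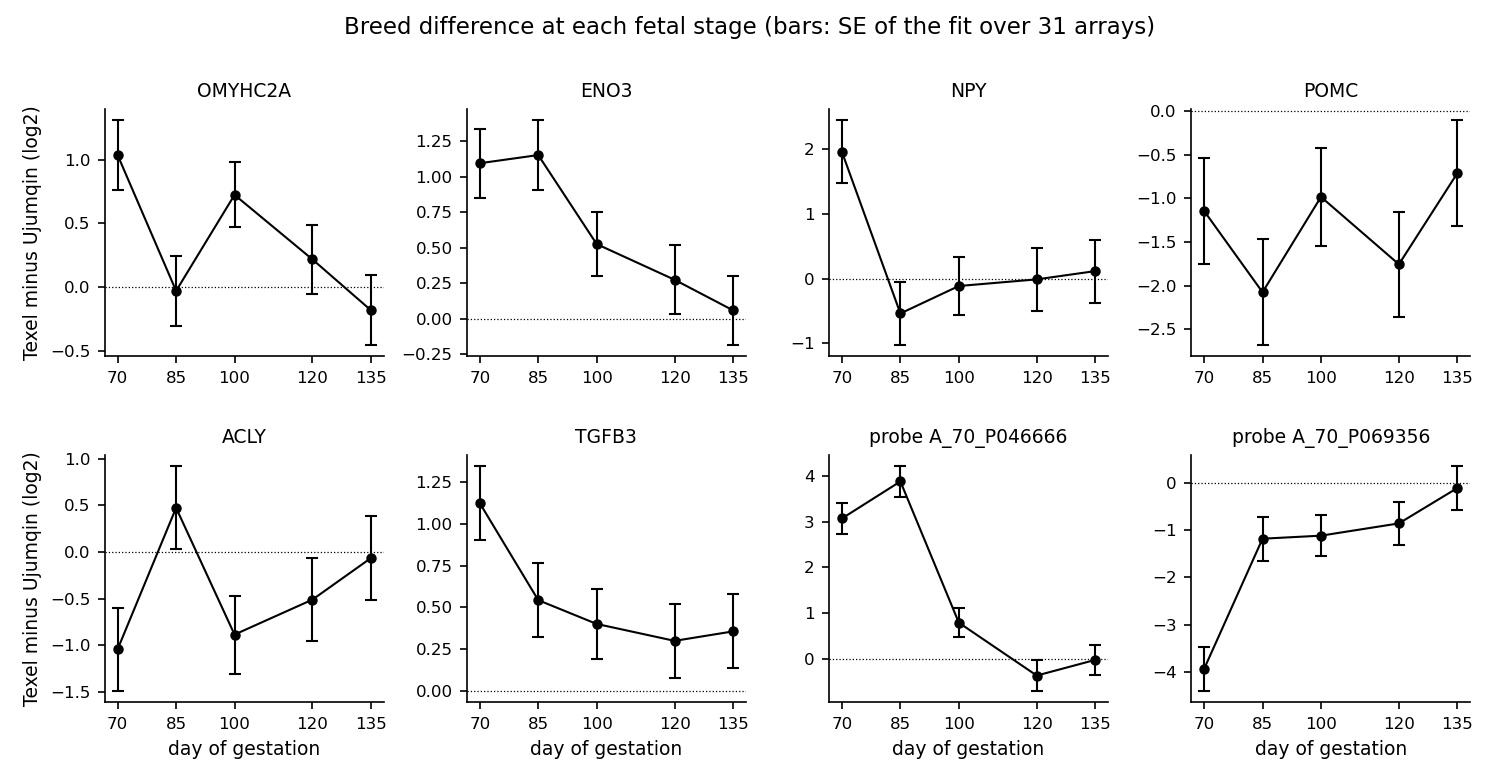
Texel minus Ujumqin difference (log2) by day of gestation (70, 85, 100, 120 and 135) for 6 genes and 2 unnamed probes; points are fitted differences, bars are the SE from the fit over 31 arrays, and each panel has its own axis with 0 dotted where it is in range. NPY is at 1.95 at 70 d and between −0.54 and 0.12 later, ENO3 and probe A_70_P046666 are highest at 70 and 85 d, and POMC is below 0 at every stage.

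Because the breeds lay on different slides, the slide difference of the 85 d Texel arrays was set beside all calls. It is the mean of 2 fetuses on slide 1 minus 1 fetus on slide 2, so it also holds the spread between fetuses. It pointed the same way as the breed difference in 36 of the 48 named genes, and by 2-fold or more in 9. Over probes, 348 of the 463 past the threshold and 8517 of all 14379 tested shared the direction. A slide difference of 2-fold or more in the direction of the breed difference was found for 109 of the 463, 23.5%, and for 509 of all tested probes, 3.54%. With slide as a fixed term in a fit over all stages, where groups with arrays on more than 1 slide set the slide effect, 7 of the 48 named genes were past the threshold in the same direction: ENO3, ACLY, NPY, ALB, LEPR, CLEC4E and PRP2. ALDOA gave 0.90 in that fit, while ESR2, PTGER4 and AQP5 gave 0.17, 0.04 and 0.35.

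**Figure D5:**
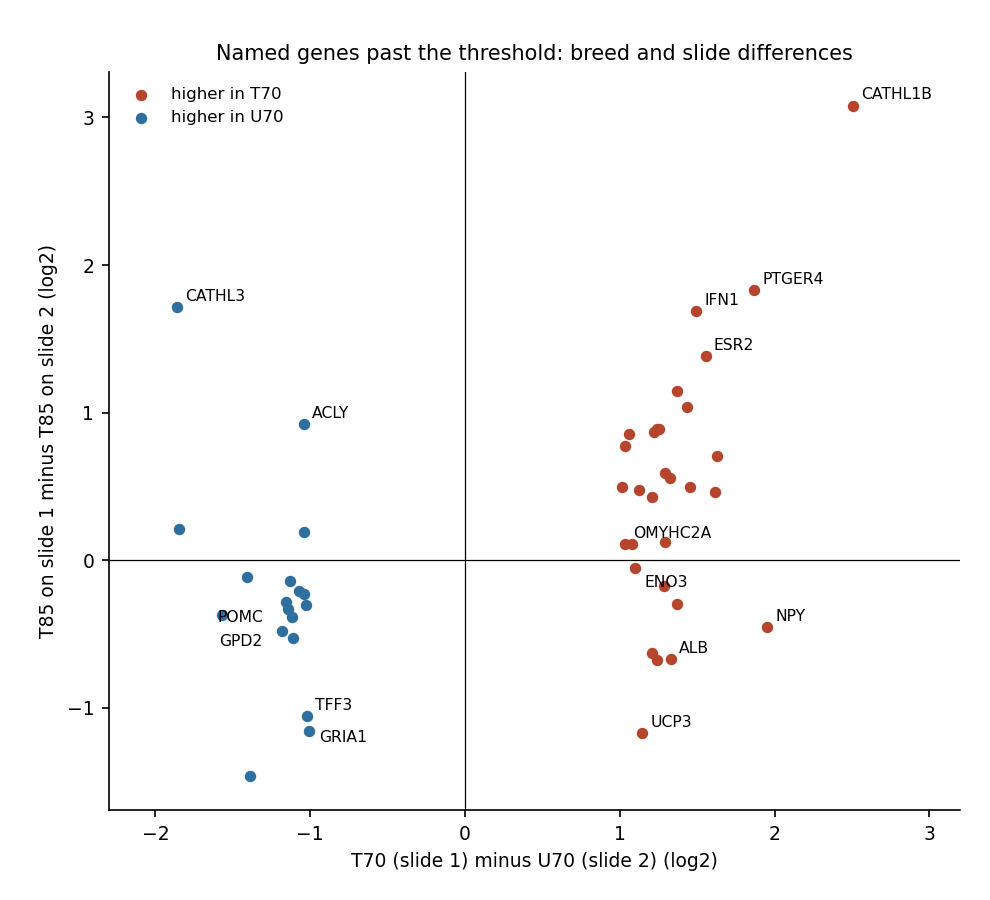
For the 48 named genes past the threshold at 70 d, the slide 1 minus slide 2 difference of the 85 d Texel arrays (log2, 2 arrays minus 1) is plotted against the T70 minus U70 difference (log2), with genes higher in T70 in red and in U70 in blue. CATHL1B, PTGER4, IFN1 and ESR2 lie high on both axes, OMYHC2A and ENO3 lie near 0 on the slide axis, and CATHL3, ACLY, NPY and UCP3 have opposite signs on the 2 axes.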

How the data were processed

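Total RNA of each longissimus dorsi was labelled with Cy3 and hybridized to a 1-colour Agilent sheep array. The submitters' processing notes name Agilent Feature Extraction 10.5, and the deposited processed signal is an intensity from which the local background had been subtracted. The authors also deposited a table of 40 columns of quantile-normalized log2 values, used here as an alternative. A genome build is not given in the sources used here.

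Groups were taken from the sample labels. Spots flagged as outliers were dropped, spots of a probe were averaged, the 31 fetal arrays were quantile normalized together, values below a floor of 1 were set to 1, and log2 was taken. The 14379 probes well above background on at least 1 fetal array were tested between T70 and U70 (3 against 3) with lmFit and eBayes of limma 3.58.1 in R 4.3.3, without covariates, and p-values were adjusted by Benjamini-Hochberg over all of them. A probe not above background on any array of a breed has only a bound there. Its fold is given as "at least", from the mean of the other breed against, per array, the higher of the lowest detected signal and the probe's own. No fold is given where none above 1 could be bounded, or where the other breed was above background on 1 array only. For KRT25, NPVF and LOC101107261 only 2 T70 arrays were above background and the mean took all 3, so "at least" is approximate there. The fit was tested on simulated data before use. Tables and figures were made with Python 3.11.15, pandas 2.3.3, numpy 2.4.6 and matplotlib 3.10.9.

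Of 15008 probes, 1605 could be named, giving 973 symbols: 662 probes by accession, 148 by gene ID, 488 by symbol, 28 by synonym, and 279 kept the name in the file. A gene with several tested probes was represented by that with the highest mean signal. Genes were described in 27 lists with at least 3 tested members and by cell type markers. The rule for naming took the named probes past the adjusted threshold, the 12 genes in each direction with the largest non-overlapping difference past the unadjusted threshold, up to 4 genes past it in each list, up to 5 unnamed probes in each direction past the adjusted threshold, the other probes of these genes, and the markers. The comparison, the lists and the rule were chosen with earlier results of these data known, so no list is independent evidence. By the methods 3 ewes of each breed were used at a stage, but no label ties a fetus to its ewe, so p-values measure the spread between these samples. Replicate numbers paired nothing. Alternatives covered scaling, background correction, filters, floor, variance prior, test, sex, slide, replicate number, probe choice and leaving out each array. Some genes are not reported here.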

Additional observations from a re-analysis of the deposited data

Results flagged for a closer look

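For 4 probes the breed difference at 70 d differed from the mean breed difference of the 4 later fetal stages, by the interaction contrast of limma over 31 arrays, adjusted over 14379 probes. None has a gene name in the array annotation. Probe A_70_P069356 gave −3.12 (SE 0.51, adjusted p = 0.0215), from −3.93 at 70 d and −0.11 to −1.18 later. Probe A_70_P018086, labelled MYL6B in the study's annotation, gave −1.29 (SE 0.19, adjusted p = 0.00664). It measured 16.27, 16.07 and 15.87 in T70 and 17.51, 17.03 and 17.38 in U70, and its later differences lay between −0.20 and 0.21. Probe A_70_P056776, labelled as a T cell receptor beta chain, gave −1.64 (SE 0.30, adjusted p = 0.046), from 3.64, 3.22 and 4.04 in T70 and 4.80, 4.96 and 5.93 in U70. Probe A_70_P046666 gave 2.01 (SE 0.37, adjusted p = 0.046), although its breed difference at 85 d, 3.89, exceeded that at 70 d, 3.07. None of the 14379 probes passed this adjusted contrast with slide as a fixed term, or without U70 replicate 3 (263 and 265 probes at an unadjusted p of 0.05 and 2-fold).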

How the results depend on the processing

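The 15 probes past the adjusted threshold became 80 with 75th percentile scaling, 80 with array weights, 42 in the fit over 10 groups, 24 with a filter on 3 of 6 arrays, 5 with normexp, 4 with sex as a covariate, 2 with slide as a fixed term, and 463 at an adjusted p of 0.4. Welch's test of the study's methods gave 0, with 249 probes and 23 named genes at the unadjusted threshold. The replicate number as a block gave 2, with 490 unadjusted, against 463; same-numbered arrays correlated at −0.003 to 0.041, so they shared only a number. Normexp gave 62 probes and 5 named genes at the unadjusted threshold, and slide as a fixed term 259 and 13. Leaving out 1 array gave 2 (without U70 replicate 3) to 6 adjusted probes, 423 to 632 unadjusted probes, and 41 to 51 named genes. The 4 probes of the stage contrast became 2 with 75th percentile scaling, the deposited table or slide as a random block, and 0 with slide as a fixed term (263 at an unadjusted p of 0.05 and 2-fold). Without 1 array they were 0 to 9, lowest without U70 replicate 3 (265 unadjusted) and highest without U70 replicate 1 or 2.

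With slide as a fixed term 4 genes reversed on the probe that stood for them: CATHL1B to −0.57, EP4d to 0.078, IFN1 to −0.20 and TFF3 to 0.036. The second TFF3 probe did not, at −0.84. Of the 52 genes and unnamed probes of the text, 13 kept direction and threshold with that term, 10 with normexp, 29 with Welch's test, 42 with 75th percentile scaling and 50 with the deposited table. The causes were not tested.

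List medians that moved by more than their spread between arrays were as follows. With 75th percentile scaling, which moved the median of all probes to 0.06, TGF-beta gave 0.14, cytokines 0.23, immunoglobulin and T cell receptor chains 0.42, leukocyte 0.24, peptide hormones 0.28, placental 0.67, transporters 0.30 and vessel 0.32. With array weights TGF-beta gave 0.15, cytokines −0.0037 and fatty acid 0.043. With the filter on 3 of 6 arrays cytokines gave 0.21, erythroid −0.50 and nerve −0.062. With the mean of all probes erythroid gave 0.085, leukocyte 0.068, ribosome −0.039 and vessel 0.15. With normexp leukocyte gave 0.033, nerve 0.058, placental 0.063, transporters 0.056 and vessel 0.065. With sex as a covariate cytokines gave −0.11, fatty acid 0.036 and erythroid −0.45. With slide as a fixed term antimicrobial peptides gave −2.05, chaperones −0.098, erythroid 0.35, immunoglobulin −7.1e-05, keratins −0.079, nerve −0.013, placental 0.21 and vessel 0.098.

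Without any 1 array the medians ran from 0.054 to 0.18 for TGF-beta, −0.071 to 0.16 for chaperones, −0.23 to 0.17 for complement, −0.041 to 0.24 for cytokines, −0.40 to 0.023 for detoxifying enzymes, 0.017 to 0.17 for fatty acid, −0.64 to 0.38 for erythroid, 0.086 to 0.42 for keratins, 0.065 to 0.15 for leukocyte, 0.14 to 0.57 for nerve, −0.097 to 0.097 for sarcomere, 0.0047 to 0.28 for steroid and 0.16 to 0.21 for vessel genes. Glycolysis kept 0.17 to 0.27 and myogenic regulation −0.07 to 0.12.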
